A study of Mus musculus with 6 samples.

Results

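Classical MHC class I presentation was examined through 10 genes, found by symbol among the 34245 genes of the RNA-seq table: B2m, H2-K1, H2-D1, Tap1, Tap2, Tapbp, Psmb8, Psmb9, Psmb10 and Nlrc5. All 10 were measured in every tumor, and all passed a mean of 1 FPKM. FPKM is the number of fragments on a gene per kilobase of its exons, scaled to the depth of the library. Levels can be compared between genes only roughly, since the length appears to be that of the merged exons of all transcripts. These exons span 860 bases for B2m and 3660 for Psmb9.

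The study asked how the loss of the DNA methyltransferase Dnmt3b bears on lymphoma in mice. RNA was sequenced from 3 independent peripheral T-cell lymphomas (PTCL), here tumors 1, 2 and 3. Each grew in the lymph node of a terminally sick FVB/N mouse of genotype Dnmt3b+/-, in which 1 allele is inactivated in the germline and so in every cell of the animal. The age of each animal was not given in the sources used here. Methylation was profiled by bisulfite sequencing in 2 Dnmt3b+/- and 1 Dnmt3a-/- tumors, which were not analysed here. With 1 group of tumors there is no comparison between conditions, so all values are descriptions of 3 tumors without a test. The depth of the libraries, recovered from the values, was 30726570 reads in tumor 1, 18969988 reads in tumor 2 and 20770928 reads in tumor 3.

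Class I molecules show fragments of a cell's own proteins to CD8+ T cells. The proteasome, in its immune form with inducible catalytic subunits, cuts proteins into peptides, the TAP transporter carries them into the endoplasmic reticulum, and tapasin helps to load them onto a heavy chain paired with beta-2 microglobulin. Interferons raise most of these genes, and NLRC5 acts as a coactivator at the promoters of several of them. It acts through a module of X and Y boxes that binds RFX, CREB/ATF and NF-Y proteins.

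Promoter windows, from 250 bases before to 50 after a start site, were taken from RefSeq on build GRCm38.p6 for 8 of the 10 genes. Tap2 and Nlrc5 were not matched. The windows were searched on both strands for the core of an X2 box and of a Y box at a fixed spacing, TGACGNNNNNNNNNNNNNNNNNNNNATTGG, where ATTGG reads CCAAT on the other strand. The letters were chosen after the sequences had been seen. The element was found in 31 of 32851 windows (0.0944%), and B2m, H2-K1, H2-D1 and the nonclassical class I gene H2-M3 were among the 27 gene symbols that hold it. It was not found in the windows of Tap1, Tapbp, Psmb8, Psmb9 and Psmb10. It is shown for these genes, 5′ to 3′ on the strand of the gene, with both box cores in capitals.
B2m: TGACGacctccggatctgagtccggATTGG
H2-K1: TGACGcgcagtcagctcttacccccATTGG
H2-D1: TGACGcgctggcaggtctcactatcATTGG
H2-M3: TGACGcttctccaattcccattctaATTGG
The positions are chr2:122147609-122147638 on the plus strand for B2m, chr17:34000359-34000388 on the minus strand for H2-K1, chr17:35262993-35263022 on the plus strand for H2-D1 and chr17:37270188-37270217 on the plus strand for H2-M3. All lie upstream of the RefSeq start, and that of H2-D1 also lies inside the gene as GENCODE M21 draws it, in the 5′ UTR of a longer transcript. Of the 20 bases between the box cores, 13 were identical in H2-K1 and H2-D1, against 3 in B2m and H2-K1 and 2 in B2m and H2-D1. With H2-M3, 7 were identical in H2-K1, 9 in H2-D1 and 5 in B2m. The closest pair was thus H2-K1 and H2-D1.

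Longer stretches are given for B2m and H2-K1 to show what lies before the element. Capitals also mark GGGNNNNNCCC, which some NF-kappaB sites contain, and GAAACT or its complement AGTTTC, which is part of interferon response elements.
B2m: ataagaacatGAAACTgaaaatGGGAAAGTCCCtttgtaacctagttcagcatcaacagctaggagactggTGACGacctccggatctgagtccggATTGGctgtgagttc
H2-K1: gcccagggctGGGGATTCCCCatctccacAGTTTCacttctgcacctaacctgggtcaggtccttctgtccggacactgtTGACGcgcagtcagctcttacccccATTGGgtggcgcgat
The B2m stretch is chr2:122147538-122147648 and the H2-K1 stretch chr17:34000349-34000468. GGGNNNNNCCC was found in 14.0% of all windows and GAAACT in 15.8%, so these matches are common, and a match is no evidence of binding. The sequences are those of the reference strain, and FVB alleles can differ. GGGNNNNNCCC was found in the windows of 5 of the 8 genes, also in H2-D1, Tap1 and Psmb9, against 15.6% of all gene symbols. GAAACT was found in 4, also in H2-D1 and Psmb8, against 18% of all gene symbols.

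H2-K1 and H2-D1 encode the classical heavy chains, which hold the peptide. H2-D1 (ENSMUSG00000073411, chr17:35262730-35267499 on mm10) had 603, 1238 and 777 FPKM in tumors 1, 2 and 3, on average 873 ± 328 (SD, n = 3). H2-K1 (ENSMUSG00000061232, chr17:33996017-34000333) had 231, 373 and 273 FPKM in the same order, on average 292 ± 72.5 (SD, n = 3). Both heavy chain genes were highest in tumor 2 and lowest in tumor 1, although H2-K1 was lowest in tumor 3 when the FPKM of each tumor were scaled to a common sum. The 2.05-fold range of H2-D1 was wider than the 1.61-fold range of H2-K1. H2-D1 exceeded H2-K1 in every tumor, by 2.61, 3.32 and 2.84 times. FVB mice carry other alleles of these polymorphic genes than the C57BL/6 reference, and both genes resemble other class I genes, so that their levels, and those of the nonclassical genes, are uncertain.

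B2m (ENSMUSG00000060802, chr2:122147686-122153083) encodes the light chain shared by all these heavy chains. Its level was 2327, 1573 and 1781 FPKM in tumors 1, 2 and 3, on average 1894 ± 389 (SD, n = 3). By FPKM, B2m ranked among the most abundant transcripts in each tumor, at rank 2, 7 and 12. Its order was the opposite of that of the heavy chains, since it was highest in tumor 1 and lowest in tumor 2. B2m divided by the sum of H2-K1 and H2-D1 gave 2.79, 0.977 and 1.70 for tumors 1, 2 and 3. In FPKM, light chain RNA thus exceeded classical heavy chain RNA in tumors 1 and 3 and about equalled it in tumor 2. This ratio was chosen after the values had been seen. In bulk tumor RNA, fewer cells of a type and less RNA per cell cannot be told apart.

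**Figure D1:**
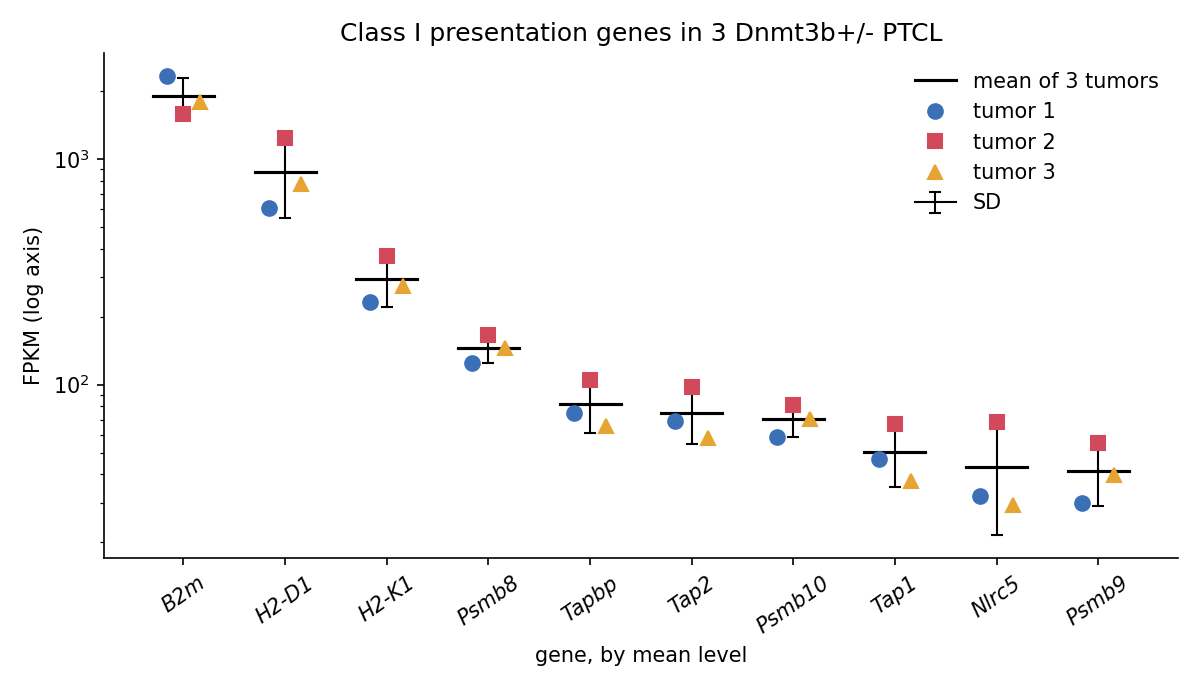
FPKM of the 10 class I presentation genes in each tumor, on a log axis, ordered by mean level; bars give the mean and SD of 3 tumors. Tumor 2 is the highest point for 9 genes, and B2m, at 1573 FPKM in tumor 2, is the exception.

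Tap1 and Tap2 encode the subunits of the peptide transporter. Tap1 (ENSMUSG00000037321, chr17:34187553-34197225) had 46.7, 66.6 and 37.3 FPKM in tumors 1, 2 and 3, on average 50.2 ± 15.0 (SD, n = 3). Tap2 (ENSMUSG00000024339, chr17:34203527-34216321) had 69.0, 97.8 and 58.1 FPKM, on average 75.0 ± 20.5 (SD, n = 3). Both were highest in tumor 2 and lowest in tumor 3, and the ratio of Tap2 to Tap1 was nearly the same in the tumors, at 1.48, 1.47 and 1.56. Tapbp (ENSMUSG00000024308, chr17:33915899-33929288), which encodes tapasin, had 74.7, 105 and 65.7 FPKM, on average 81.9 ± 20.7 (SD, n = 3). Its order of tumors was that of the transporter genes, although with median-of-ratios factors, which align the typical gene, Tapbp was lowest in tumor 1. Exons of Tap1 and Psmb9 overlap over 212 bases on opposite strands, and exons of Tap2, Tapbp, Psmb8 and Nlrc5 also overlap other genes. Strand use in counting was not given in the sources used here, so reads from such partners cannot be told apart. The widest overlaps were 904 bases of Tapbp with Gm19412 (24.9% of its exon bases), 498 of Psmb8 with Gm20496 (14.7%) and 533 of Tap2 with Gm15821 (14.1%). Gm20496 was listed at 140, 235 and 207 FPKM in tumors 1, 2 and 3, above Psmb8.

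Psmb8, Psmb9 and Psmb10 encode the catalytic subunits of the immunoproteasome, each of which takes the place of a constitutive subunit. Psmb8 (ENSMUSG00000024338, chr17:34197721-34201454) had 124, 166 and 145 FPKM in tumors 1, 2 and 3, on average 145 ± 20.96 (SD, n = 3). Psmb10 (ENSMUSG00000031897, chr8:105935735-105938444) had 58.7, 81.3 and 70.5 FPKM, on average 70.2 ± 11.3 (SD, n = 3). These genes had the narrowest spread of the 10, 1.34-fold and 1.39-fold between the highest and the lowest tumor. Psmb9 (ENSMUSG00000096727, chr17:34181988-34187764) had 29.8, 55.1 and 39.9 FPKM, on average 41.6 ± 12.8 (SD, n = 3). All 3 inducible subunits were highest in tumor 2 and lowest in tumor 1, except that Psmb8 was lowest in tumor 3 with a common sum.

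Each inducible subunit was set against the constitutive subunit that it replaces, as a ratio of FPKM within a tumor, which does not depend on the scale of the library. Psmb8 over Psmb5 was 3.80, 4.40 and 3.28 in tumors 1, 2 and 3, on average 3.83 ± 0.560 (SD, n = 3). Psmb9 over Psmb6 was 1.28, 2.54 and 2.12, on average 1.98 ± 0.639 (SD, n = 3). Psmb10 over Psmb7 was 3.67, 9.65 and 6.05, on average 6.46 ± 3.01 (SD, n = 3). All 9 ratios were above 1, so the inducible transcript had the higher FPKM of each pair in every tumor. Each ratio was highest in tumor 2. The wide range of Psmb10 over Psmb7 came from both genes, since Psmb7 had 16.0, 8.43 and 11.7 FPKM and was lowest where Psmb10 was highest. The thymic subunit Psmb11 was listed at 0.0112 FPKM or less in every tumor.

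**Figure D2:**
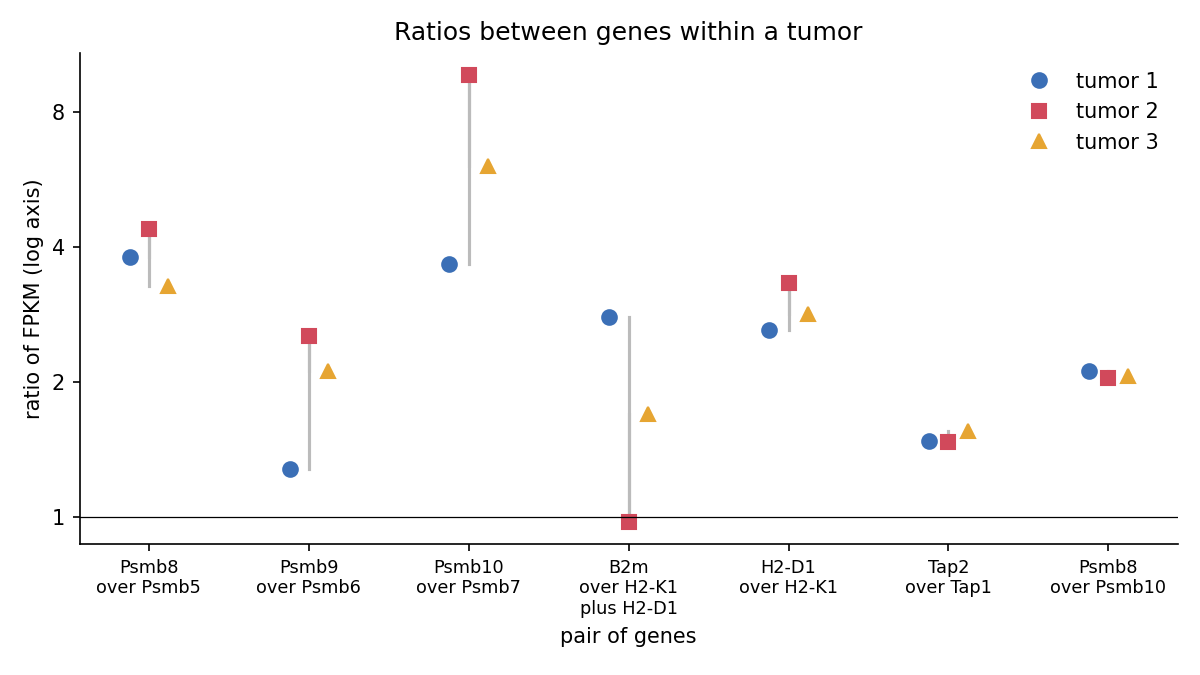
Ratios of FPKM between genes within each tumor, on a log axis, with a grey line over the range of the 3 tumors. Psmb10 over Psmb7 spans 3.67 to 9.65, B2m over the heavy chains falls to 0.977 in tumor 2, and Tap2 over Tap1 stays between 1.47 and 1.56.

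Nlrc5 (ENSMUSG00000074151, chr8:94434356-94527272) encodes the class I coactivator. Its level was 32.0, 68.3 and 29.4 FPKM in tumors 1, 2 and 3, on average 43.2 ± 21.8 (SD, n = 3). Tumor 2 stood apart from the others, which differed by 1.09-fold, and the 2.32-fold range of Nlrc5 was the widest of the 10 genes. Without tumor 2 its mean was 30.7 FPKM.

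By mean level the order was B2m, H2-D1, H2-K1, Psmb8, Tapbp, Tap2, Psmb10, Tap1, Nlrc5 and Psmb9. The ranges of neighbours did not overlap from B2m down to Tapbp. From Tapbp down to Psmb9 the ranges of neighbours overlapped, although Psmb9, the last, lay wholly below Tapbp, Tap2 and Psmb10. The median over the 10 genes was 71.8, 102 and 68.1 FPKM in tumors 1, 2 and 3, on average 80.5 ± 18.3 (SD, n = 3).

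Tumor 2 held the highest value for 9 of the 10 genes, against 33.7% of the 11191 genes with a mean of at least 1 FPKM. B2m was highest in tumor 1, where 50.6% of all genes had their highest value, and none of the 10 was highest in tumor 3, against 15.7%. The lowest value was in tumor 1 for 5 genes (24.3% of all genes), in tumor 3 for Tap1, Tap2, Tapbp and Nlrc5 (37.4%) and in tumor 2 for B2m (38.3%). Tumors 1, 3 and 2 were lowest for 3, 6 and 1 genes with a common sum and for 7, 2 and 1 with median-of-ratios factors, so whether tumor 1 or 3 was lowest depended on the scale for several genes. Each of the 10 genes kept its highest tumor when the FPKM were rescaled to a common sum or by median-of-ratios factors, with 30.7% and 36.7% of all genes highest in tumor 2. Without H2-K1 and H2-D1, a choice made after seeing the data, 7 of 8 genes were highest in tumor 2.

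Log2 ratios between tumors were taken of FPKM + 0.1, with 1 tumor against 1. The median of the 10 genes was 0.51 for tumor 2 over tumor 1, against -0.17 for all genes, and 0.57 for tumor 2 over tumor 3, against 0.06. For tumor 3 over tumor 1 it was 0.05, against -0.23, and its sign turned with the scale, to -0.19 for a common sum. Rescaling to a common sum moved the median of all genes by -0.13, -0.25 and 0.11 for tumor 2 over 1, 3 over 1 and 2 over 3, and median-of-ratios factors moved it by 0.17, 0.23 and -0.06.

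H2-D1 and Nlrc5 were at least 2-fold higher in tumor 2 than in tumor 1, 2 of 10 genes, against 9.77% of all genes, and none was as much lower (14.4%). With a common sum, neither passed 2-fold, and with median-of-ratios factors 3 of the 10 did, while the shares of all genes given here are for the deposited scale. Nlrc5 alone was at least 2-fold higher in tumor 2 than in tumor 3 (10.7%), and none was lower (4.64%). Between tumors 3 and 1 none of the 10 passed 2-fold in either direction, against 4.24% higher and 12.6% lower. These shares depend on the filter: among genes with a mean of at least 10 FPKM, 6.47% were higher and 6.91% lower in tumor 3 than in tumor 1, and 9.5% rather than 14.4% were lower in tumor 2 than in tumor 1. A range of at least 2-fold over the tumors was found for 2 of the 10 genes and for 33.2% of all genes. The median range was 1.65-fold for the 10 genes and 1.68-fold for all genes, so in size their variation was near that of all genes.

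These differences rest on many reads. Psmb10 in tumor 3 had the fewest, 2497, with an exact Poisson 95% interval of 67.8 to 73.3 FPKM, and B2m in tumor 1 had the most, 61487. For none of the 10 genes did the intervals of 2 tumors overlap, which covers counting error only. Reads of H2-K1, Tapbp, Psmb8 and Psmb9 are approximate.

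Likeness of profile was measured as the Euclidean distance over the 3 tumors between a gene's log2 levels, centred on their mean, and the median profile of the 10 genes. H2-K1 was nearest to that profile, at 0.0861, and B2m the farthest, at 0.851, followed by Nlrc5 at 0.520. Among 3432 genes with a mean of at least 10 FPKM, Abhd17a, Tonsl, Pold2, Rab11fip4 and Cblb were the nearest other genes, at distances of 0.0537 to 0.0591. Abhd17a had 17.8, 27.9 and 19.5 FPKM in tumors 1, 2 and 3. Such profiles were common, with 32.3% of those genes within 0.5.

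Of the 10 genes, 7 lie in the MHC region of chromosome 17, in the order Tapbp, H2-K1, Psmb9, Tap1, Psmb8, Tap2 and H2-D1. All 7 were highest in tumor 2, with a median log2 ratio of 0.62 for tumor 2 over the mean of tumors 1 and 3. Between Tapbp and H2-M3, the 10 listed nonclassical class I genes with a mean of at least 1 FPKM were also highest in tumor 2, with a median of 1.36. The 5 listed class II genes in the same stretch, which lie among the class I presentation genes, were highest in tumor 1, with a median of -0.84. Class II genes of the stretch outside the list, looked at after their values were seen, did not all share this pattern as deposited: H2-DMb2 was highest in tumor 1, H2-Oa was nearly equal in tumors 1 and 2, and H2-Ob and H2-Eb2 were highest in tumor 3. With a common sum H2-Oa and H2-Eb2 were highest in tumor 1, and with median-of-ratios factors H2-Oa was highest in tumor 2 and H2-DMb2 in tumor 3. Of the 101 other genes of the region, these 4 included, 49 were highest in tumor 2 (48.5%), with a median of 0.18. B2m, Psmb10 and Nlrc5 lie elsewhere, on chromosomes 2 and 8.

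**Figure D3:**
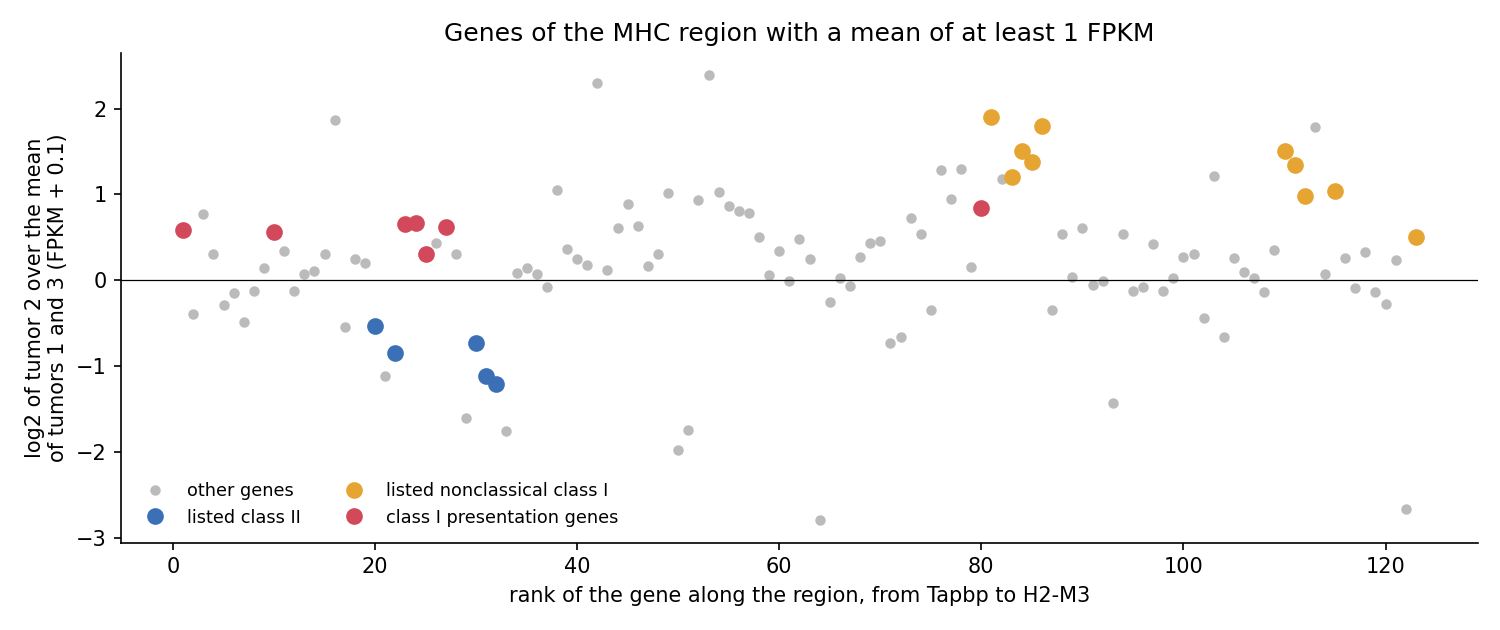
Genes of the MHC region with a mean of at least 1 FPKM, ranked by position, against the log2 ratio of tumor 2 over the mean of tumors 1 and 3. The 7 class I presentation genes and the 10 listed nonclassical genes lie above 0 and the 5 listed class II genes below 0. Class II genes outside the list are among the other genes, where H2-Oa lies at 0.25.

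Among genes that assist loading and trimming of peptides, 6 of 7 were highest in tumor 1 (85.7%, against 50.6% of all genes), unlike Tap1, Tap2 and Tapbp. With median-of-ratios factors 5 were (71.4%, against 36.9%). Pdia3 had 188, 107 and 94.4 FPKM and Calr 163, 115 and 112 FPKM in tumors 1, 2 and 3. Erap1, which trims peptides, had 32.7, 13.4 and 22.6 FPKM. The exception was Tapbpl, related to tapasin, with 26.7, 53.4 and 38.5 FPKM, highest in tumor 2 like the transporter genes. The median log2 ratio of the list was -0.50 for tumor 2 over tumor 1 and 0.18 for tumor 2 over tumor 3.

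The activator and assembly genes of the proteasome did not share the tumor 2 maximum of Psmb8, Psmb9 and Psmb10. Of these 4, 2 peaked in tumor 1 (50%, against 50.6% of all genes) and 2 in tumor 3 (50%, against 15.7%) as deposited. With a common sum, 3 peaked in tumor 1 and 1 in tumor 3 (75% and 25%, against 60.5% and 8.75%). With median-of-ratios factors these were 1 and 3 (25% and 75%, against 36.9% and 26.4%). None peaked in tumor 2 on any scale, against 33.7% of all genes as deposited. A list of 4 is too short to set this absence apart from the share of all genes. Psme1 had 123, 124 and 128 FPKM and Psme2 had 116, 109 and 145 FPKM in tumors 1, 2 and 3. The constitutive subunits Psmb5, Psmb6 and Psmb7 were highest in tumors 3, 1 and 1, and 1 of the 3 was highest in tumor 2 with median-of-ratios factors.

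Of 15 regulators of class I genes, tumors 1 and 2 each had the highest value of 7, and tumor 3 that of 1. These are 46.7%, 46.7% and 6.67% for tumors 1, 2 and 3, against 50.6%, 33.7% and 15.7% of all genes. The share in tumor 1 was thus near that of all genes. Irf1 had 50.4, 76.5 and 57.0 FPKM in tumors 1, 2 and 3. Stat2 had the widest range, with 12.5, 31.3 and 8.11 FPKM. Like Nlrc5, these genes of interferon signaling were highest in tumor 2. Rfx5, whose protein binds the X box, had 4.84, 8.17 and 6.24 FPKM, and Rfxap, also highest in tumor 2, had 2.89, 3.39 and 3.18 FPKM. The other RFX and CREB genes of the list went the other way. Rfxank had 5.54, 5.16 and 7.61 FPKM and Creb1 6.45, 3.66 and 5.29 FPKM, both lowest in tumor 2 as deposited. Nfya, Nfyb and Nfyc, whose proteins bind the Y box, had their highest values in tumor 1, or tumor 3 for Nfya and Nfyc with median-of-ratios factors.

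The type I interferon-inducible list had all 10 genes highest in tumor 2 (33.7% of all genes) and lowest in tumor 1 (24.3%), with a median log2 ratio of 3.03 for tumor 2 over tumor 1 and 1.70 for tumor 2 over tumor 3. Bst2 had 53.4, 459 and 138 FPKM in tumors 1, 2 and 3, and Rsad2 had 0.653, 22.3 and 1.90. These medians were larger than the widest log2 ratio of the 10 class I presentation genes for the pairs, 1.21 for Nlrc5. The order of tumors, 2 above 3 above 1, was also that of H2-D1, Psmb9 and Psmb10 on every scale. H2-K1 and Psmb8 had it except with a common sum, where Oasl2 too was lowest in tumor 3. As deposited, Tap1, Tap2, Tapbp and Nlrc5 had tumor 2 above 1 above 3, and B2m had 1 above 3 above 2. With median-of-ratios factors, Tapbp and Nlrc5 also had 2 above 3 above 1. The share of all genes with the order of the interferon list was not taken.

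Of 9 interferon gamma-inducible genes, 5 were highest in tumor 1 and 4 in tumor 2 (55.6% and 44.4%, against 50.6% and 33.7% of all genes), and 7 and 2 with a common sum (77.8% and 22.2%, against 60.5% and 30.7%). Gbp2 had 140, 58.7 and 29.0 FPKM in tumors 1, 2 and 3, Igtp 119, 126 and 70.8, and Cxcl9 37.8, 1.77 and 0.447. Cxcl10 had 8.14, 22.5 and 0.663 FPKM and was highest in tumor 2 on every scale. Ido1 was below 1 FPKM. In the interferon gamma signaling list tumor 2 had the highest value of 3 of 6 genes, tumor 1 of 2 and tumor 3 of 1 (50%, 33.3% and 16.7%, against 33.7%, 50.6% and 15.7% of all genes). Ifng itself had 8.49 FPKM in tumor 1 and at most 1.12 elsewhere. Ifngr1 had 64.1, 182 and 72.3 FPKM and Ifngr2 5.54, 1.05 and 1.09 FPKM.

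Of the nonclassical class I genes, 12 of 13 measured had a mean of at least 1 FPKM, and 10 of these were highest in tumor 2 (83.3%, against 33.7% of all genes), with a median log2 ratio of 1.43 for tumor 2 over tumor 1 and 1.05 for tumor 2 over tumor 3. H2-Q4 had 123, 273 and 115 FPKM and H2-Q7 had 47.2, 167 and 81.0 FPKM in tumors 1, 2 and 3. H2-M3, which holds the promoter element shown above, had 31.1, 45.6 and 33.2 FPKM. The 2 exceptions, Mr1 and Cd1d1, lie outside the MHC region. The class II list went the other way, with its 7 genes highest in tumor 1 (against 50.6% of all genes), or 6 with median-of-ratios factors (85.7%, against 36.9%), and a median log2 ratio of -1.10 for tumor 2 over tumor 1 and -0.70 for tumor 2 over tumor 3. Cd74 had 345, 167 and 207 FPKM and H2-Ab1 83.5, 34.4 and 30.7 FPKM.

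**Figure D4:**
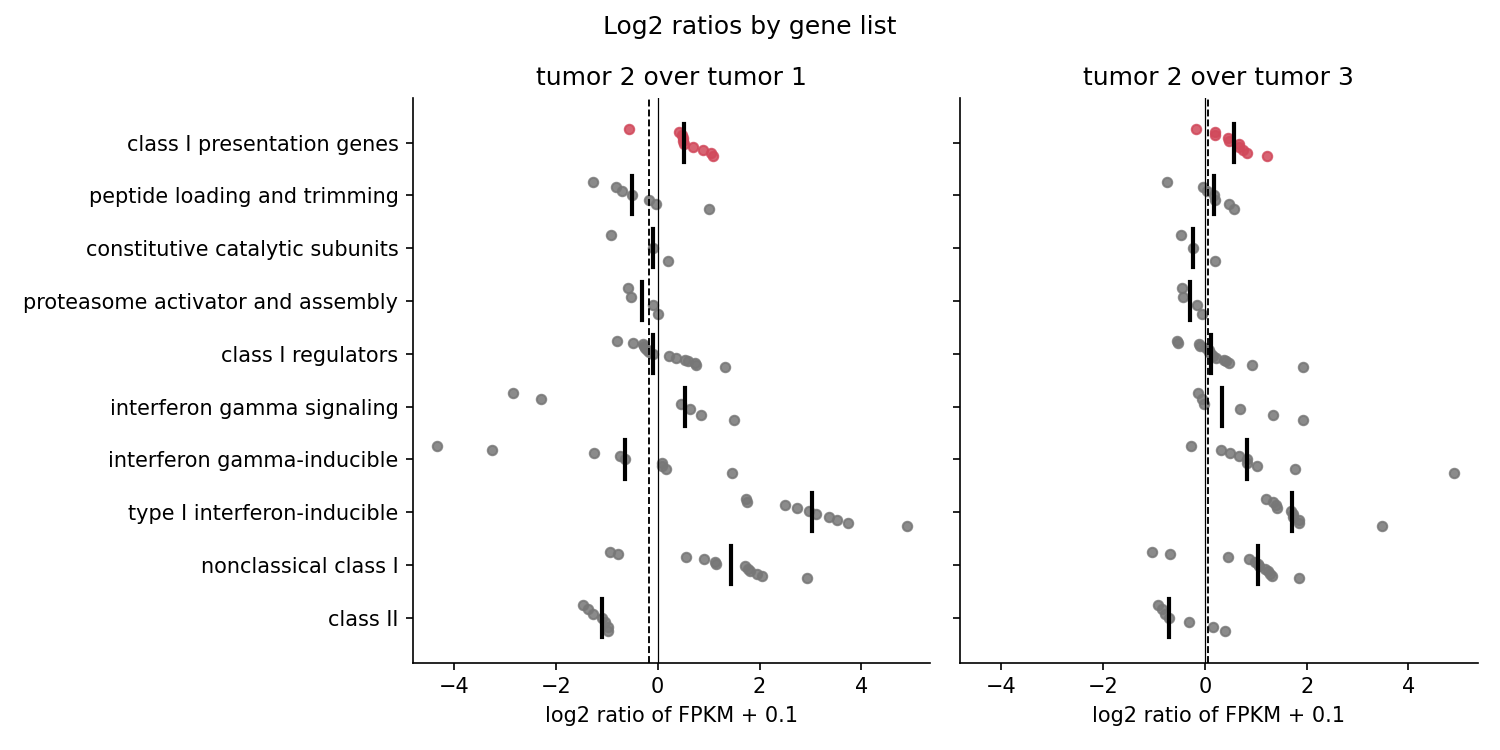
Log2 ratios of single genes with a mean of at least 1 FPKM, by list, for tumor 2 over tumor 1 and tumor 2 over tumor 3; black bars are list medians and the dashed line is the median of all genes. The class I presentation genes center on 0.51 and 0.57, between the type I interferon-inducible genes at 3.03 and 1.70 and the listed class II genes at -1.10 and -0.70.

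Markers of T cells were abundant in every tumor, as the label says, with all 10 genes above 1 FPKM, a sum of 1384, 1077 and 1454 FPKM in tumors 1, 2 and 3. Of the 10, 4 were highest in tumor 2 and 3 each in tumors 1 and 3, so the lower sum of tumor 2 does not hold for each gene. Cd8b1 had 435, 166 and 443 FPKM and Cd8a 259, 122 and 218 FPKM, while Lck, with 160, 208 and 207 FPKM, was the most abundant in tumor 2. Macrophage and monocyte genes, which include cells rich in class II, summed to 266, 90.4 and 33.4 FPKM, and 5 of 6 were highest in tumor 1. Lyz2 gave 215, 33.1 and 20.3 FPKM of this, and the exception, Cd68, gave 51.2 of the 90.4 in tumor 2. B cell genes summed to 62.1, 50.2 and 118 FPKM, and 5 of 6 were highest in tumor 3. The exception, Cd22, gave 36.5 of the 50.2 FPKM in tumor 2, and the median log2 ratio of the list was -1.81 for tumor 2 over tumor 1 and -2.68 for tumor 2 over tumor 3. Tumor 2, where 9 of the 10 class I presentation genes were highest, had the most RNA of pancreatic acinar genes, with sums of 70.5, 386 and 0.603 FPKM, and of fibroblast genes, with 10.1, 41.0 and 0.345 FPKM, led by Ctrb1 and Col1a1 in that tumor, although the fibroblast gene Dcn was highest in tumor 1, with 5.04, 3.27 and 0.00825 FPKM. Sums were 8.61, 6.73 and 3.37 FPKM for dendritic cells, although Clec9a and Zbtb46 were highest in tumor 2, 0.713, 6.51 and 3.55 for NK cells, mostly Klrb1c in tumors 2 and 3, and 13.6, 12.8 and 5.13 for endothelium, led by Pecam1, although Cdh5 was highest in tumor 2. For epithelium they were 14.2, 2.75 and 0.913, where Cdh1 gave 13.7 in tumor 1 while Epcam, Krt8 and Krt18, all below 1.2 FPKM, were highest in tumor 2, and for erythroid cells 162, 30.1 and 4.66, led by Hba-a1. The defining NK gene Ncr1 was at 0.380 FPKM or less. The part of these cells in the levels of the class I presentation genes was not tested.

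**Figure D5:**
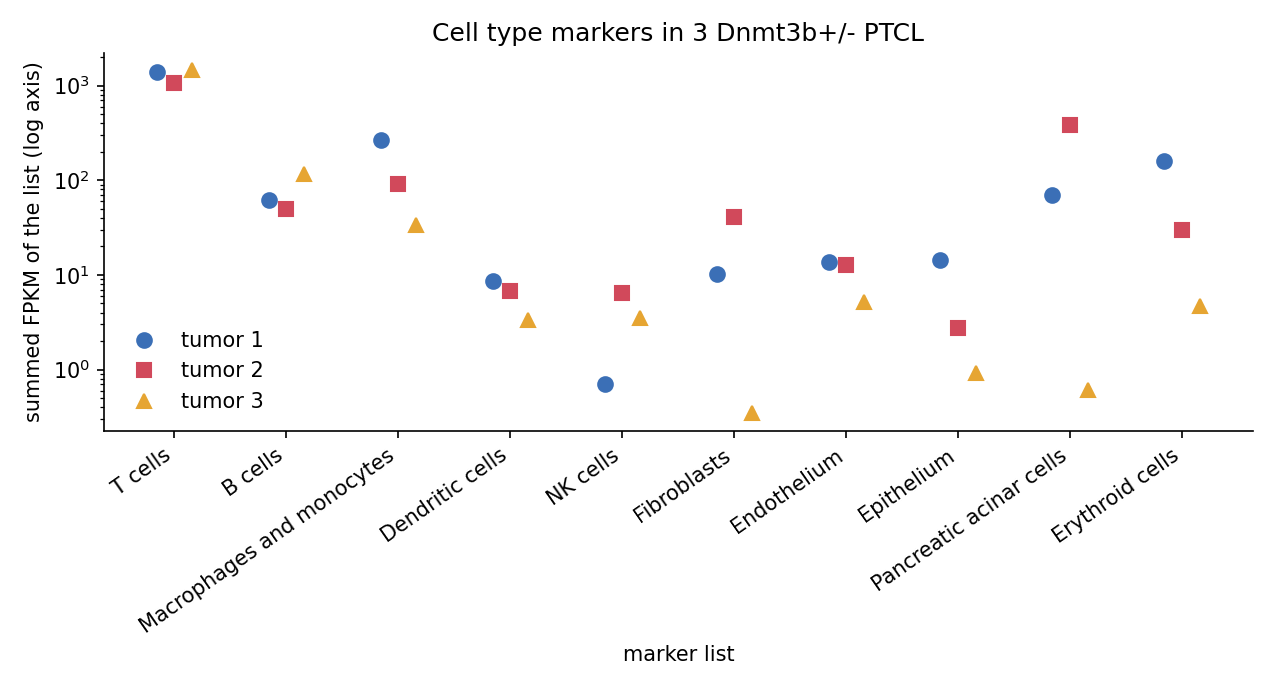
Summed FPKM of cell type marker lists in each tumor, on a log axis. T cell genes lie at 1077 FPKM or above in all tumors, and acinar genes range from 0.603 FPKM in tumor 3 to 386 in tumor 2.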

How the data were processed

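RNA was sequenced as paired-end reads of 150 bp. After trimming, the authors used STAR for alignment to mm10, kept alignments of mapping quality 50 or more, counted them per gene in SeqMonk and deposited linear FPKM for each tumor. Tool versions were not given in the sources used here. The sources differ on the sequencer. Dates stood in place of 26 of the 34199 symbols, which were looked up again by identifier, and for repeated symbols the gene with the highest mean was used. Depth and reads were recovered from the FPKM and the merged exons of GENCODE M21, taking a gene without a read as 0.9 read, and 92.6%, 92.6% and 92.7% of genes gave whole reads within 0.02 (or a relative 1e-05) in tumors 1, 2 and 3. The steps were tested on simulated data. No count model was fitted, since FPKM are not counts.

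The genes and lists were chosen with earlier results of these data known. Named genes are the 10 members, up to 4 of each list (the 2 highest and the 2 with the widest spread) and the 5 nearest in profile. Gm19412 and Gm15821 are named for their exon overlap. Others (Rfx5, Rfxap, Rfxank, Creb1, Nfya, Nfyb, Nfyc, Oasl2, H2-M3, Mr1, Cd1d1, Ido1, Ncr1, Epcam, Krt8, Krt18, Dcn, Cd22, Lck, Zbtb46, Cdh5, Gm20496, H2-Oa, H2-Ob, H2-Eb2, H2-DMb2) and the ratios of Tap2 to Tap1, H2-D1 to H2-K1 and B2m to heavy chains were chosen after their values were seen. Alternatives were other scales, pseudocounts of 0.01 and 1, thresholds of 1.5-fold and 3-fold, other filters, repeated symbols summed, means for medians and each tumor left out. Scripts ran in Python 3.11 with NumPy 2.4.6, pandas 2.3.3, matplotlib 3.10.9 and SciPy 1.17.1.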

Additional observations from a re-analysis of the deposited data

How the results depend on the processing

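A result counts as unmoved within 1 SD of the tumors for a level or ratio, within 1.5 times for a count or share, and when equal at 2 decimals for a median log2 ratio. By these rules, 97 results under other settings were unmoved, 30 moved and 1 changed sign. With 3 tumors, leaving 1 out cannot move a mean by 1 SD, so those results were unmoved by construction. A count of 0 at 2-fold likewise stays 0 at 3-fold. The tally is thus no measure of stability. When the FPKM of a tumor were scaled to a sum of 1000000, the median of the 10 genes was 392, their median log2 ratio was 0.38 for tumor 2 over tumor 1, 0.68 for tumor 2 over tumor 3 and, with the sign turned, -0.19 for tumor 3 over tumor 1, and 0 genes were at least 2-fold higher in tumor 2 than in tumor 1, against 3 with median-of-ratios factors. The rescaling divides each library by a different sum, which by construction shifts every gene alike. With median-of-ratios factors the log2 medians were 0.68 for tumor 2 over tumor 1, 0.51 for tumor 2 over tumor 3 and 0.28 for tumor 3 over tumor 1. The mean in place of the median gave 357 FPKM and log2 ratios of 0.55 and 0.53 for tumor 2 over tumors 1 and 3 and 0.026 for tumor 3 over tumor 1, and a pseudocount of 1 gave 0.50 for tumor 2 over tumor 1 and 0.56 for tumor 2 over tumor 3. At 1.5-fold, 4 genes were higher in tumor 2 than in tumor 1 and 5 than in tumor 3. At 3-fold there were 0 and 0, and these changes follow from the threshold. The share of all genes past a threshold was taken only at 2-fold on the deposited scale. Counts at other thresholds or scales thus cannot be set against such a share. Of the 5 nearest genes 1 was also found among genes with a mean of at least 1 FPKM, where more genes compete.

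With a tumor left out in turn, the median of the 10 genes was 70.0 to 86.7 FPKM, and the ratios were 3.54 to 4.10 for Psmb8 over Psmb5, 1.70 to 2.33 for Psmb9 over Psmb6 and 4.86 to 7.85 for Psmb10 over Psmb7. No paired analysis was possible because the RNA-seq and bisulfite groups share replicate numbers only, the bisulfite samples were not analysed here and no test was run. The number of tumors limits the precision, and depth left the intervals of any 2 tumors apart for each of the 10 genes.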

Other observations

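Ratios between the 10 genes were compared over the tumors, a choice made after the values had been seen. Of their 45 pairs, 3 kept a ratio within 1.1-fold over the 3 tumors (6.67%), against 1.56% of the 5887596 pairs among 3432 genes with a mean of at least 10 FPKM. The pairs were Psmb8 with Psmb10, Tap2 with Tapbp, and Tap1 with Tap2. Psmb8 over Psmb10 was 2.12, 2.04 and 2.06 in tumors 1, 2 and 3, although these genes lie on chromosomes 17 and 8. Psmb9 and Tap1, whose start regions adjoin on opposite strands, varied more against each other, with Psmb9 over Tap1 at 0.638, 0.828 and 1.07. Within 1.5-fold were 48.9% of the pairs, against 22.9% of all pairs. The widest ratio was that of B2m to Nlrc5, which ranged 3.16-fold. Pairs share genes and are not independent, and no test was made.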
